A study of Mus musculus with 4 samples.

Results

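The Dlk1 to Dio3 imprinted cluster is a long run of microRNA (miRNA) hairpins on mouse chromosome 12, and its mature products were followed here in mouse aorta. Members were chosen by name and by location in this region, with earlier results of these data known but without use of their measured values. Of 58 names, 57 were found among the 1152 listed entries, and they come from 45 hairpins. The remaining name, miR-3071-5p, was not analysed here. RNA of 18 to 30 nucleotides from aortas of wild-type C57BL/6 mice, a common inbred strain, at the labelled age of 12 weeks, was sequenced to profile miRNAs in vascular calcification in chronic kidney disease (CKD). The 4 libraries, Sham 1, Sham 2, CKD 1 and CKD 2, were each a pool of 4 samples, and values of a group are printed in that order. For both groups the labels describe the same procedure: both poles of the left kidney were taken out, the right kidney followed after 1 week, and the animals then had 4 weeks of 2% phosphate diet and 0.45% NaCl in the drinking water. The sources used here do not say how Sham mice were handled instead.

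A miRNA is cut from a hairpin RNA, leaves one or both of its arms (5p and 3p) as mature strands, and represses mRNAs that pair with its seed, bases 2 to 8. The Dlk1 to Dio3 region is imprinted: Dlk1, Rtl1 and Dio3 are expressed from the paternal chromosome, and the noncoding RNAs Meg3, Rian and Mirg and the miRNAs are expressed from the maternal one. The cluster is strongly expressed in embryo, placenta and brain, and in adult vessels several of its members, among them miR-329, miR-487b, miR-494 and miR-495, are known for restraining the growth of new vessels after ischaemia. Some of the hairpins lie on the strand opposite Rtl1, a retrotransposon-derived gene of placenta and muscle, and their products pair fully with its mRNA.

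RefSeq (GRCm38.p6) held the mature sequence of 54 of the 57 listed members, and those the results turn on are printed 5′ to 3′ with the seed in capitals. The first set holds the 6 most abundant members.

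miR-127-3p: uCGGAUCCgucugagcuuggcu
miR-379-5p: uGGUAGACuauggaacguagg
miR-411-5p: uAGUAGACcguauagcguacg
miR-434-3p: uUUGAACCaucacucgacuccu
miR-136-3p: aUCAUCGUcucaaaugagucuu
miR-541-5p: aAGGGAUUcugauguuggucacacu

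The second set holds a pair with nearly the same sequence and different values between Sham and CKD. Counting positions from 1 at the 5′ end, miR-381-3p differed from miR-300-3p by G4A, which lies in the seed, and by U21G and C22U.

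miR-300-3p: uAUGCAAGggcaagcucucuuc
miR-381-3p: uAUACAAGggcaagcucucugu

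The third set shows why the values of miR-299a are uncertain. The hairpin Mir299b is annotated on the strand opposite Mir299a, its 3p product of 18 bases equals the first bases of miR-299a-3p, and its 5p product of 21 bases equals miR-299a-5p from position 2 to the end.

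miR-299a-3p: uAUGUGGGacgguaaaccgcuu
miR-299b-3p: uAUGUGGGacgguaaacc
miR-299a-5p: uGGUUUACcgucccacauacau
miR-299b-5p: gGUUUACCgucccacauacau

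The fourth set holds further members whose values or arm shares are described, and the only pair of members with the same seed, miR-379-3p and miR-411-3p, which differed by U10C and U22C.

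miR-127-5p: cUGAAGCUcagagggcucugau
miR-434-5p: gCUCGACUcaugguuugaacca
miR-136-5p: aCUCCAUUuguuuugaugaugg
miR-485-3p: aGUCAUACacggcucuccucuc
miR-496a-3p: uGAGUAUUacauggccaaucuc
miR-380-3p: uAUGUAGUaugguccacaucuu
miR-379-3p: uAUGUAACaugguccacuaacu
miR-411-3p: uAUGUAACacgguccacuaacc

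The 54 sequences held 53 distinct seeds. They were 20 to 25 bases long, 24 began with U and 19 with A, and their GC content ran from 23.8% to 72.7% with a median of 47.8%. Of the listed entries that are no members, miR-362-3p shared its seed with miR-329-3p, miR-344d-3p with miR-410-3p, miR-299b-3p with miR-299a-3p and miR-1193-5p with miR-379-5p.

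The deposited values are reads per 1000000 listed reads (CPM), and the reads behind them could be recovered: 17520690 and 16878392 for Sham 1 and 2, 17532748 and 16658810 for CKD 1 and 2. A floor of 3 reads is between 0.171 and 0.180 CPM, and this floor covers counting error only. miR-143-3p, the main smooth muscle miRNA, took 79.8% and 72.5% of reads in Sham and 41.1% and 40.8% in CKD, so on a fixed total most other entries are higher in CKD. Differences are therefore given on 2 scales: the deposited CPM, and CPM divided by trimmed-mean (TMM) factors, which take out the shift shared by most entries and so assume that most did not change. On both scales limma was fitted to log2(CPM + 1) over the 479 entries with a mean of at least 1 CPM, with Benjamini-Hochberg adjustment over all of them and a threshold of 0.05. This log scale understates the change of low entries. The labels do not say that the libraries of a group came from separate animals, so p-values reflect nothing beyond the spread between pools, which may be technical. In whole aorta, fewer cells of a type and less RNA per cell cannot be told apart.

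Levels within the cluster were very uneven, and a few members made up most of it. miR-127-3p, which is known to direct cleavage of Rtl1 mRNA, had 343 and 443 CPM in the Sham pools and 962 and 780 CPM in the CKD pools. It made up 35.3% and 33.0% of the cluster's reads in Sham and 33.0% and 30.9% in CKD, so its place was about the same in every library. The 6 most abundant members together held 67.6% and 67.0% of cluster reads in Sham and 67.6% and 66.3% in CKD, and the 12 most abundant held 83.0% and 82.4% in the Sham pools and 82.2% and 81.0% in the CKD pools. The mean levels of the highest and lowest tested members differed 614-fold. Adaptor ligation captures some sequences better than others, so the order of levels between miRNAs is that of reads and not necessarily of molecules.

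miR-379-5p, from the first hairpin of the distal run, had 63.2 and 85.6 CPM in the Sham pools and 236 and 229 CPM in the CKD pools. miR-411-5p, from the next hairpin, had 79.3 and 102 CPM in the Sham pools and 244 and 188 CPM in the CKD pools. The order of this pair differed between libraries, with miR-411-5p above miR-379-5p in both Sham libraries and in CKD 1 and below it in CKD 2, and their means over the 4 libraries, 153.5 and 153.2 CPM, differed by less than the spread within a group. Next in mean level came miR-434-3p, which lies opposite Rtl1, with 71.3 and 107 CPM in the Sham pools and 180 and 160 CPM in the CKD pools. It lay above miR-379-5p in both Sham libraries and above miR-411-5p in Sham 2. miR-136-3p, also opposite Rtl1, had 50.6 and 77.1 CPM in the Sham pools and 194 and 150 CPM in the CKD pools. miR-541-5p, from within Mirg, had 49.4 and 85.3 CPM in the Sham pools and 155 and 168 CPM in the CKD pools. All 5 of these were higher in each CKD pool than in either Sham pool on the deposited scale, as were 91.2% of all 479 tested entries. The ranges of miR-434-3p, miR-136-3p and miR-541-5p overlapped with each other within each group.

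Below the first 6, miR-300-3p, miR-434-5p, miR-337-5p, miR-409-5p, miR-381-3p and miR-494-3p completed the 12 most abundant. miR-337-5p had 14.2 and 18.96 CPM in the Sham pools and 52.3 and 49.4 CPM in the CKD pools. miR-409-5p had 9.76 and 17.8 CPM in the Sham pools and 50.3 and 45.4 CPM in the CKD pools. miR-494-3p, one of the members known for restraining vessel growth, had 8.45 and 15.8 CPM in the Sham pools and 32.9 and 41.7 CPM in the CKD pools. All 3 were higher in both CKD libraries on this scale, again as were 91.2% of all tested entries. Of the 57 listed members, 25 had a mean of at least 10 CPM, 51 a mean of at least 1 CPM and so entered the tests, and 6 did not. Those 6 were miR-412-5p, miR-493-3p, miR-539-5p, miR-679-5p, miR-770-3p and miR-3072-3p, with values from 0 to 1.20 CPM. miR-412-5p and miR-770-3p had no read in Sham 1, which allows up to 0.171 CPM. Among the 51, miR-323-3p, miR-376a-3p and miR-666-5p averaged under 1 CPM in Sham and passed the filter through their CKD values.

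**Figure D1:**
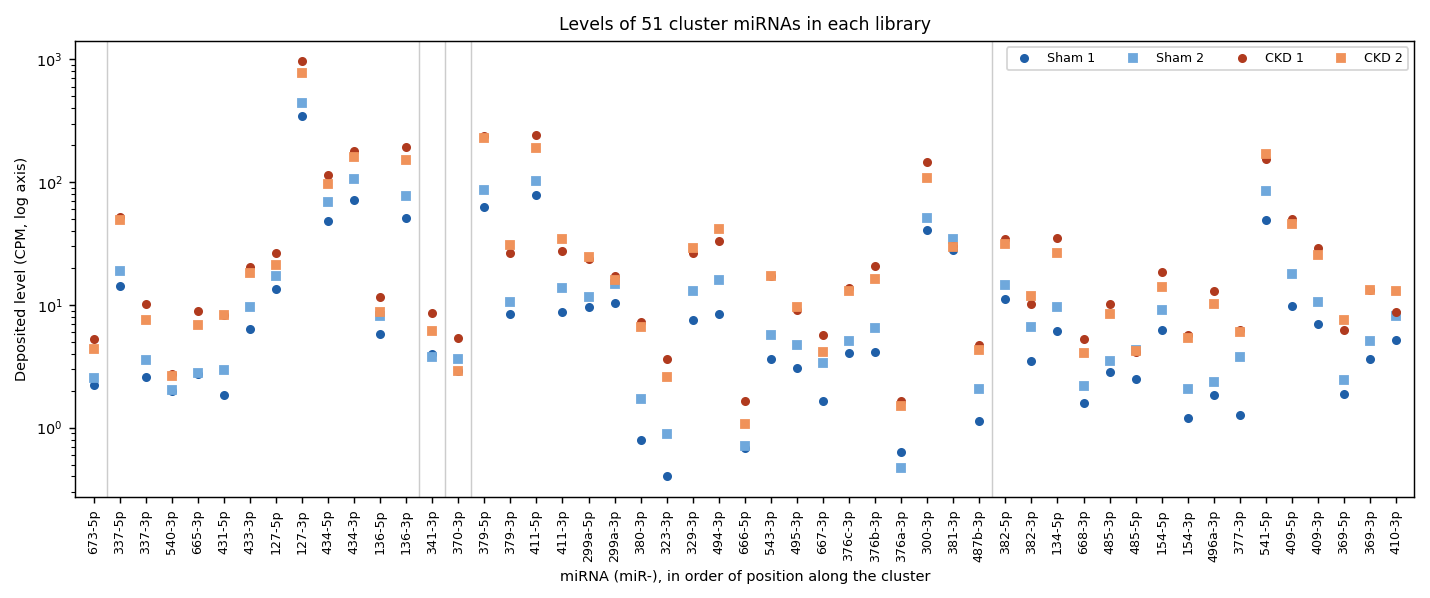
Deposited level of each of the 51 tested members in the 2 Sham (blue) and 2 CKD (red and orange) libraries, in CPM on a log axis, ordered by position; vertical lines part the blocks of hairpins. miR-127-3p stands highest in every library, and the CKD points lie above the Sham points for 48 members, with miR-381-3p among the 3 where the groups overlap.

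As a whole the cluster took a larger share of all reads in CKD, and about the same share of the reads left once miR-143-3p was set aside. The members summed to 972 and 1343 CPM in the Sham pools and 2916 and 2528 CPM in the CKD pools. Their share of all reads averaged 0.116% ± 0.0262 (SD, n = 2) over the Sham pools and 0.272% ± 0.0274 (SD, n = 2) over the CKD pools, a 2.35-fold higher share. Of the reads other than miR-143-3p they made up 0.482% and 0.489% in the Sham pools and 0.495% and 0.427% in the CKD pools, where the CKD libraries lay on both sides of the Sham libraries and the ratio of the means was 0.950. Without miR-127-3p the ratios were 2.42 and 0.981. With 2 libraries against 2, an exact two-sided permutation test cannot go below 0.333, so none was run on these shares.

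**Figure D2:**
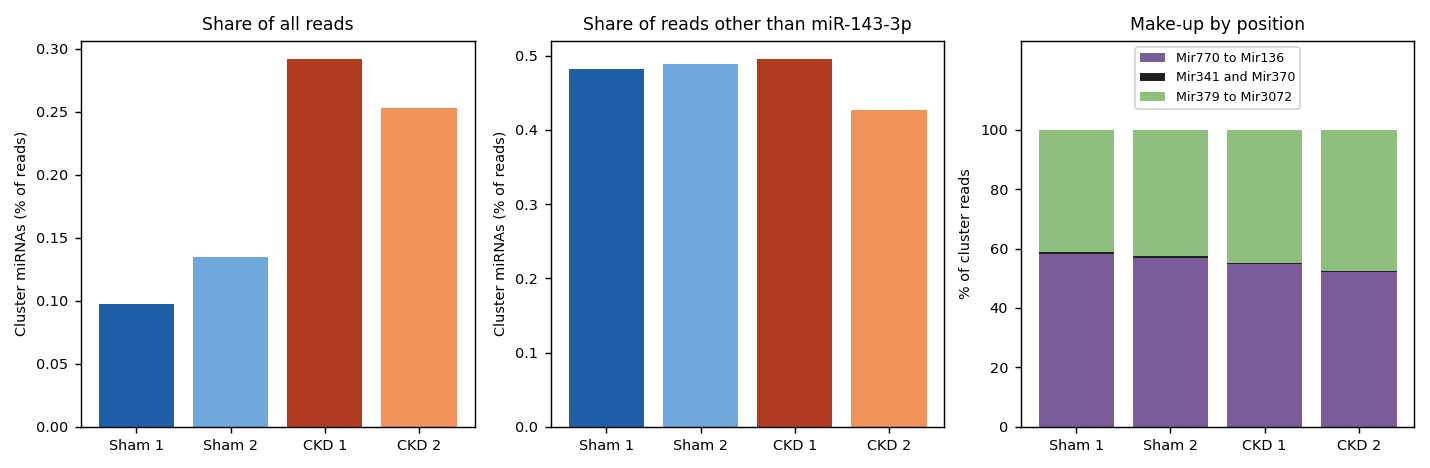
Bars give the cluster's share of all reads (left), its share of reads other than miR-143-3p (middle) and the make-up of the cluster by position (right, stacked, in percent of cluster reads) in each library. The CKD libraries, at 0.292% and 0.253%, stand above the Sham libraries, at 0.0972% and 0.134%, in the left panel, while in the middle panel all libraries lie between 0.427% and 0.495%.

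In GRCm38 the listed hairpins run along the plus strand of chromosome 12 from Mir770 at 109563692 to the end of Mir3072 at 109747960. A gap of over 5 kb between neighbouring hairpins was taken as the end of a block, which gave 8 blocks. Mir770 lies alone in an exon of Meg3, and Mir341 and Mir370 lie alone in introns of Rian. The first dense block, chr12:109585789-109595388, runs over 9.6 kb from Mir337 to Mir136 and holds 8 hairpins with 12 listed members, and its hairpins Mir431, Mir433, Mir127, Mir434 and Mir136 lie opposite an exon of Rtl1. The second, chr12:109709060-109728202, runs from Mir379 to Mir539 with 19 hairpins and 22 listed members, and the third, chr12:109733771-109747960, runs from Mir382 to Mir3072 inside exons and introns of Mirg with 13 hairpins and 18 listed members.

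The make-up of the cluster by position differed slightly between the groups. The block from Mir337 to Mir136 summed to 562 and 761 CPM in the Sham pools and 1592 and 1310 CPM in the CKD pools, which was 57.8% and 56.7% of cluster reads in Sham and 54.6% and 51.8% in CKD. The block from Mir379 to Mir539 held 29.3% and 28.6% in the Sham pools and 30.8% and 32.0% in the CKD pools. The Mirg block held 11.9% and 14.0% in the Sham pools and 14.0% and 15.7% in the CKD pools. The first dense block was lower, and the second higher, in each CKD pool than in either Sham pool. The ratios of mean CPM were 2.19, 2.55 and 2.65 in order of position. With a gap of 10 kb the Mir379 and Mirg blocks joined and held 41.2% and 42.6% of cluster reads in Sham and 44.7% and 47.7% in CKD.

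On the deposited scale nearly all members were higher in CKD, at a rate close to that of all miRNAs. Of the 51 tested members, 40 were called higher (78.4%) and none lower by limma, against 82.9% of all 479 entries called higher and 1.04% called lower. No member was lower at an unadjusted p under 0.05 either. In 48 of the 51 (94.1%) both CKD libraries lay above both Sham libraries, against 91.2% of all tested entries, and the median log2 difference was 1.24 among members and 1.34 among all. The other 3 members, miR-370-3p, miR-381-3p and miR-485-5p, had overlapping groups. The 11 members not called were these 3 with miR-127-5p, miR-136-5p, miR-299a-3p, miR-376a-3p, miR-410-3p, miR-434-5p, miR-540-3p and miR-666-5p. The count of calls moved with single libraries: 30 members were called without Sham 1, 43 without Sham 2, 8 without CKD 1 and 17 without CKD 2.

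With the shared shift taken out, the median of the members lay slightly below that of all tested entries. With TMM scaling 6 of the 51 members (11.8%) were called lower by limma and none higher, against 5.85% of all tested entries called lower and 1.88% called higher, and 2 members were higher at an unadjusted p under 0.05. edgeR's quasi-likelihood test, run on recovered reads, called 4 lower and none higher, all 4 among the 6. The median log2 difference of the members was -0.11, with 35 of 51 (68.6%) below 0, against a median of -0.00 and 50.1% below 0 among all tested entries. This sign rests on the scaling: the members' median was -0.08 with median-of-ratios factors, -0.21 with upper-quartile factors and 0.11 when libraries were scaled to their reads other than miR-143-3p, where the median of all tested entries was 0.22. Under the 4 scalings the members' median lay between 0.10 and 0.14 below that of all entries. The 6 calls were miR-381-3p, miR-299a-3p, miR-485-5p, miR-136-5p, miR-127-5p and miR-434-5p, and none of them was called on the deposited scale. Without Sham 2 only miR-381-3p kept its call, and no member was called without Sham 1, CKD 1 or CKD 2.

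**Figure D3:**
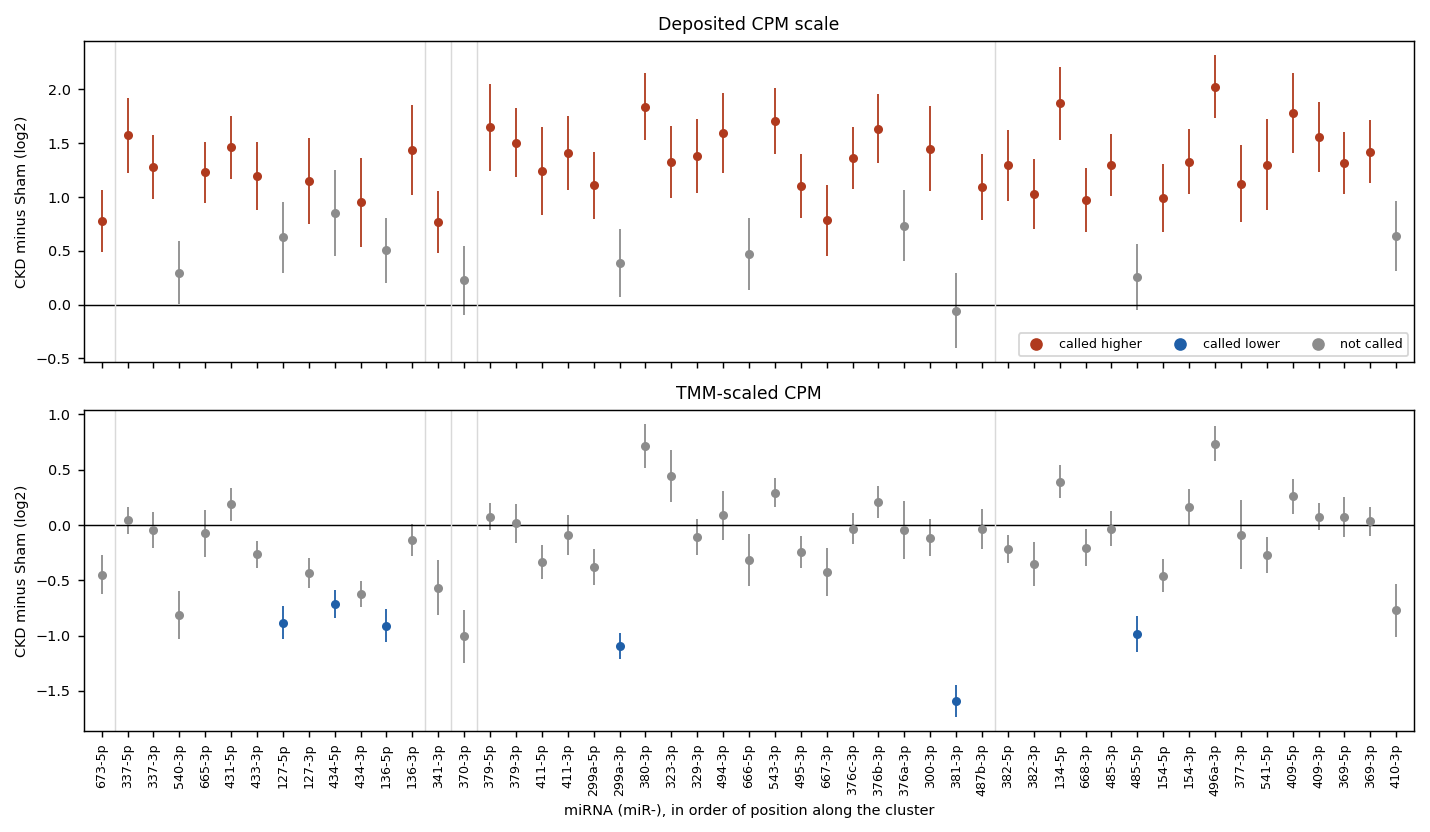
CKD minus Sham log2 difference of each tested member with its standard error, on deposited CPM (top) and TMM-scaled CPM (bottom), in order of position; red marks members called higher by limma, blue those called lower and grey those not called. On the deposited scale the values run from -0.06 to 2.03 with 40 red points, and with TMM scaling from -1.59 to 0.74 with 6 blue points.

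miR-381-3p stood furthest below the shared shift, and its near-twin miR-300-3p did not share its values. miR-381-3p had 28.0 and 34.5 CPM in the Sham pools and 30.3 and 29.4 CPM in the CKD pools, so its deposited level was flat and both CKD libraries lay between the Sham libraries. Its log2 difference on deposited CPM was -0.06 (SE 0.35, limma adjusted p = 0.88) and -1.59 with TMM scaling (SE 0.14, limma adjusted p = 0.012). Its TMM call was lost without Sham 1 (limma adjusted p = 0.065), CKD 1 (0.17) and CKD 2 (0.18), with log2 differences of -1.49, -1.54 and -1.62. Over 15 alternatives its adjusted p in limma or edgeR ran from 0.0092 to 0.18, past the threshold in 12. miR-300-3p, whose hairpin is the next member hairpin upstream and whose sequence is the same outside the 3 positions given above, had 40.8 and 51.0 CPM in the Sham pools and 147 and 109 CPM in the CKD pools. It was higher in both CKD libraries, with a deposited difference of 1.45 (SE 0.40, limma adjusted p = 0.0060) and a TMM difference of -0.11 (SE 0.17, limma adjusted p = 0.68). How reads matching both entries were assigned is not stated in the sources used here, and the difference between the 2 members was not tested. Other pairs of alike members are miR-495-3p, which differs from miR-543-3p by U6A, U7A, G9A and C10U, and miR-376a-3p, which differs from miR-376b-3p by A4G, C13A and U20G. In both of these pairs, as in miR-379-3p with miR-411-3p, each member was higher in each CKD pool than in either Sham pool on the deposited scale. The same held for 91.2% of all tested entries.

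The second lowest value, that of miR-299a-3p, changed when the reads listed as miR-299b-3p were added to it. miR-299a-3p had 10.4 and 14.8 CPM in the Sham pools and 17.1 and 16.0 CPM in the CKD pools, and its log2 difference on deposited CPM was 0.39 (SE 0.32, limma adjusted p = 0.27) and -1.09 with TMM scaling (SE 0.12, limma adjusted p = 0.015). The entry miR-299b-3p, whose 18 bases are all contained in it, had 0.06 CPM in each Sham library, 16.7 CPM in CKD 1 and 0.12 CPM in CKD 2. For the other arm, miR-299b-5p had 11.55 CPM in Sham 2, the very value of miR-299a-5p there, and at most 0.17 CPM in the other 3 libraries. The antisense entry thus carried reads in a single library for each arm, as many as or nearly as many as miR-299a had there. With the miR-299b arms added to those of miR-299a, an alternative chosen after seeing the data, the TMM difference of miR-299a-3p was -0.64 (limma adjusted p = 0.28), and 5 members were called lower in place of 6. Its TMM call was also lost without each of the libraries Sham 1, Sham 2, CKD 1 and CKD 2, with limma adjusted p of 0.10, 0.076, 0.17 and 0.18, and over 15 alternatives it held in 9.

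Of the 8 tested members from the 5 hairpins opposite Rtl1, 3 were called lower with TMM scaling, against 5.85% of all tested entries, and all 3 were 5p arms. miR-127-5p had 13.4 and 17.1 CPM in the Sham pools and 26.7 and 21.3 CPM in the CKD pools. miR-434-5p had 48.3 and 69.3 CPM in the Sham pools and 115 and 95.9 CPM in the CKD pools. miR-136-5p had 5.76 and 8.06 CPM in the Sham pools and 11.5 and 8.82 CPM in the CKD pools. On the deposited scale all 3 were higher in both CKD libraries, as were 91.2% of all tested entries. They were not called there, at log2 differences of 0.62, 0.85 and 0.50. With TMM scaling they were called lower at -0.88 (SE 0.15, limma adjusted p = 0.042), -0.72 (SE 0.12, limma adjusted p = 0.044) and -0.91 (SE 0.15, limma adjusted p = 0.039). edgeR called miR-127-5p and miR-136-5p but not miR-434-5p (edgeR adjusted p = 0.0504). Over alternatives in limma or edgeR, the call held in 6 of 15 for miR-127-5p, 4 of 15 for miR-434-5p and 6 of 14 for miR-136-5p. Each of these 3 calls was lost when any 1 of the 4 libraries was left out. The 3p arms of the same hairpins lay at -0.43, -0.62 and -0.13 with TMM scaling (limma adjusted p = 0.14, 0.051 and 0.58). They were not called, miR-434-3p by a narrow margin, and all 3 rose on the deposited scale, by 1.15, 0.95 and 1.44. The other 2 members opposite Rtl1, miR-431-5p and miR-433-3p, lay at 0.19 and -0.26 with TMM scaling and were not called. Their partner arms miR-431-3p and miR-433-5p, which are no members, lay at -0.48 and 0.03 and were not called either. Both had under 1 CPM in each Sham library. In the block from Mir337 to Mir136 the median TMM difference was -0.35, with 10 of 12 members below 0, against -0.07 in the block from Mir379 to Mir539, with 13 of 20 tested members below 0, and -0.06 in the Mirg block, with 9 of 16. Whether the blocks differ was not tested.

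In the Mirg block miR-485-5p was the only member called lower with TMM scaling. It had 2.51 and 4.33 CPM in the Sham pools and 4.11 and 4.20 CPM in the CKD pools, so its groups overlapped. Its log2 difference on deposited CPM was 0.25 (SE 0.31, limma adjusted p = 0.45) and -0.98 with TMM scaling (SE 0.16, limma adjusted p = 0.042). edgeR did not call it (edgeR adjusted p = 0.075), and over 14 alternatives the call held in 6. This call too was lost without any 1 of the 4 libraries. From the same block miR-496a-3p had the highest difference of all members on both scales. It had 1.83 and 2.37 CPM in the Sham pools and 13.1 and 10.3 CPM in the CKD pools, a 5.55-fold ratio of means. It rose by 2.03 on deposited CPM (SE 0.29, limma adjusted p = 6.4e-04) and lay at 0.74 with TMM scaling without being called (SE 0.16, limma adjusted p = 0.068). miR-485-5p and miR-496a-3p, both from Mirg, thus stood near opposite ends of the cluster.

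miR-380-3p and miR-323-3p, neighbours in the block from Mir379 to Mir539, followed miR-496a-3p in order of TMM difference. miR-380-3p had 0.80 and 1.72 CPM in the Sham pools and 7.24 and 6.60 CPM in the CKD pools. miR-323-3p had 0.40 and 0.89 CPM in the Sham pools and 3.65 and 2.58 CPM in the CKD pools. Both were higher in both CKD libraries, as were 91.2% of all tested entries. miR-380-3p rose by 1.84 on deposited CPM (SE 0.31, limma adjusted p = 9.9e-04) and lay at 0.71 with TMM scaling without being called (limma adjusted p = 0.12). miR-323-3p, which passed the filter only through its CKD values, had differences of 1.33 and 0.44 on the 2 scales, given as a description. Their Sham values rest on few reads, the lowest being 7 reads of miR-323-3p in Sham 1. The abundant members of this block did not lie together: beside miR-381-3p at -1.59 and miR-300-3p at -0.11, miR-379-5p lay at 0.07, miR-411-5p at -0.33 and miR-494-3p at 0.09 with TMM scaling. The last 3 were not called there and rose by 1.65, 1.24 and 1.59 on deposited CPM, and miR-379-5p and miR-494-3p changed sign with upper-quartile factors. By arm, the 17 tested 5p members had a median TMM difference of -0.32 with 4 called lower, and the 34 tested 3p members a median of -0.09 with 2 called lower; this difference was not tested either.

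The ratio between the 2 arms of a hairpin does not depend on library scaling, apart from the added 1 CPM, and it moved in several hairpins of the cluster. Both arms of 12 hairpins were members and testable, and limma on log2 of the 5p to 3p ratio called 4 of them (33.3%), against 27.7% of the 130 hairpins testable in the whole table. In 8 of the 12 (66.7%) the Sham and CKD ratios, taken with the added 1 CPM, did not overlap, against 70.0% of the 130. Both shares thus lay close to those of the whole table. Among the 8, miR-337 overlapped in its plain 5p share, at 84.7% and 84.2% in the Sham pools and 83.7% and 86.8% in the CKD pools. The median change was -0.10 in the 12 and -0.01 in all. The 3p arm was the higher one in all 4 libraries in 4 of the 12 hairpins and the 5p arm in 6, so arm dominance differed from hairpin to hairpin.

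miR-136 had the smallest adjusted p of the 12 and moved away from its 5p arm. The 5p arm made up 10.2% and 9.46% of its reads in Sham and 5.59% and 5.54% in CKD, a log2 change of the ratio of -0.93 (SE 0.15, limma adjusted p = 0.010). For miR-127 the 5p share was 3.76% and 3.71% in the Sham pools and 2.70% and 2.66% in the CKD pools, a change of -0.53 (SE 0.14, limma adjusted p = 0.036). For both hairpins the libraries of a group lay close together and the groups apart. miR-485 went from about even arm use toward its 3p arm: the 5p share was 46.8% and 55.3% in the Sham pools and 28.8% and 33.3% in the CKD pools, with a change of -1.05 (SE 0.26, limma adjusted p = 0.032). Its 3p arm went from 2.85 and 3.50 CPM in Sham to 10.2 and 8.40 CPM in CKD and rose by 1.30 on deposited CPM (SE 0.29, limma adjusted p = 0.0024), while the 5p arm overlapped between the groups. The arm values and the TMM calls use the same reads, so a call in one is not separate support for the other.

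miR-299a was the only hairpin of the 4 that moved toward its 5p arm, and its call was lost when reads listed as miR-299b were added. The 5p share was 48.3% and 43.8% in the Sham pools and 58.0% and 60.4% in the CKD pools, a change of 0.72 (SE 0.18, limma adjusted p = 0.030). With the miR-299b arms added it was -0.22 (limma adjusted p = 0.70), so direction and call both ended. Leaving out single libraries also changed the calls on arm ratios. Without Sham 1 none of the 4 was called, with an adjusted p of 0.076 for miR-136 in limma. Without Sham 2 only miR-136 was called. Without CKD 1 miR-136 and miR-299a were called, and without CKD 2 all but miR-127.

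**Figure D4:**
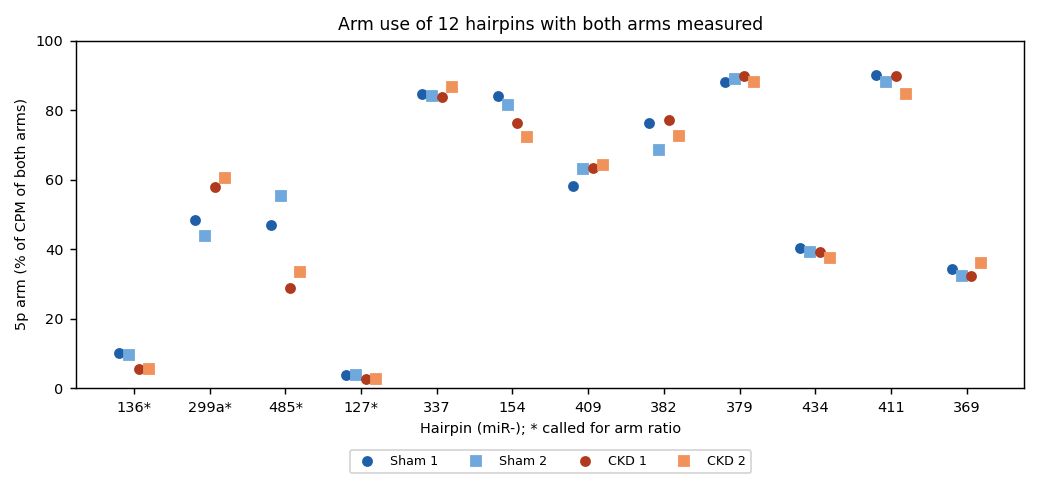
Share of the 5p arm in the CPM of both arms, in percent, for the 12 hairpins with both arms tested, in each Sham (blue) and CKD (red and orange) library; an asterisk marks hairpins called by limma. miR-136, miR-485 and miR-127 lie lower in both CKD libraries, miR-299a lies higher, and miR-379 and miR-411 stay between 84.6% and 90.1% 5p in all libraries.

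The 8 hairpins not called ranged widely in arm use. The groups did not overlap in miR-154, where the 5p arm took 84.0% and 81.4% in the Sham pools and 76.4% and 72.2% in the CKD pools, a change of -0.33 (SE 0.22, limma adjusted p = 0.29). In percentage points this was a larger move than in miR-136 or miR-127, and its libraries within a group lay further apart. miR-379 had 88.2% and 89.1% of reads from its 5p arm in Sham and 89.9% and 88.2% in CKD, and miR-411 had 90.1% and 88.1% in the Sham pools and 89.8% and 84.6% in the CKD pools, with overlapping groups in both. The 3p arms of this pair, the members with a common seed, were thus minor strands: miR-379-3p had 8.45 and 10.5 CPM in the Sham pools and 26.6 and 30.7 CPM in the CKD pools, and miR-411-3p had 8.73 and 13.7 CPM in the Sham pools and 27.7 and 34.2 CPM in the CKD pools. miR-411-3p had the higher level in each library, and with TMM scaling miR-379-3p and miR-411-3p lay at 0.02 and -0.09, signs that changed with the scaling. miR-434 had 40.4% and 39.3% from its 5p arm in Sham and 39.1% and 37.4% in CKD, a change of -0.10 (SE 0.14, limma adjusted p = 0.64). Both of its arms lay below 0 with TMM scaling. miR-409 had 58.2% and 63.0% in the Sham pools and 63.3% and 64.1% in the CKD pools, and its change of 0.22 was not called (SE 0.17, limma adjusted p = 0.37).

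Other products of the region, from a list of arms and hairpins that are no members, were scarcer than the members. Of 53 names 39 were listed and 11 tested, and these 11 included both arms of miR-299b. On the deposited scale 7 of the 11 were called higher by limma, against 82.9% of all tested entries. With TMM scaling none was higher and 1 lower, against 1.88% and 5.85% of all tested entries, and the median was -0.01. Of the 7, miR-380-5p, miR-433-5p, miR-493-5p and miR-299b-3p had under 1 CPM in each Sham library and passed the filter through their CKD values. Of these, miR-299b-3p had more than 2 reads in CKD 1 alone. The one called lower was miR-329-5p, with 19.9 and 31.8 CPM in the Sham pools and 42.0 and 42.3 CPM in the CKD pools and a TMM difference of -0.82 (SE 0.13, limma adjusted p = 0.039). Its partner miR-329-3p, a member, had 7.59 and 13.1 CPM in the Sham pools and 26.3 and 28.9 CPM in the CKD pools, and among 7 testable hairpins with 1 member arm miR-329 was the only one called for its arm ratio, at -0.66 (SE 0.15, limma adjusted p = 0.027). Outside the region, 9 of 10 imprinted miRNA names fixed for comparison were listed and 2 could be tested, miR-335-5p and miR-335-3p from Mest. Both were called higher on the deposited scale, as were 82.9% of all tested entries, and neither with TMM scaling.

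Marker miRNAs of other cell types also differed between the libraries on the deposited scale, where most entries were higher in CKD. The smooth muscle markers of the labelled tissue, both arms of miR-143 and of miR-145a, summed to 833695 and 774989 CPM in the Sham pools and 485612 and 488708 CPM in the CKD pools. The lower sum came from miR-143-3p alone: the other 3 were higher in both CKD libraries, and limma called 2 of the 4 higher and 1 lower on deposited CPM, and 2 lower with TMM scaling. The cluster is also expressed in nervous tissue, and the 5 neural markers summed to 41.8 and 58.1 CPM in the Sham pools and 155 and 190 CPM in the CKD pools, with miR-124-3p, which defines neurons, at 0.23 and 0.36 CPM in the Sham pools and 3.65 and 2.34 CPM in the CKD pools. Of these, 4 were tested, miR-124-3p only through its CKD values. The marker not tested, miR-219a-5p, went the other way, with 0.34 and 0.18 CPM in the Sham pools and 0.17 and 0.12 CPM in the CKD pools. On deposited CPM limma called all 4 tested markers higher, as it did 82.9% of all entries, and none with TMM scaling. There their median was 0.51, with miR-128-3p below 0 at -0.15, whereas the cluster's median was -0.11. The 4 striated muscle markers summed to between 508 and 620 CPM in Sham and between 969 and 1203 CPM in CKD, with miR-206-3p at 0 in Sham 2 and at most 0.30 CPM elsewhere. Red cell markers ranged from 213 to 810 CPM in Sham and from 1008 to 4754 CPM in CKD, and leukocyte markers from 75.9 to 219 and from 409 to 446 CPM. Endothelial markers summed to 2899 and 3411 CPM for Sham and 9989 and 9767 CPM for CKD, and the liver marker miR-122-5p ranged from 1.43 to 25.5 CPM and from 56.0 to 161 CPM. Within these sums, miR-451a of red cells and miR-142a-3p of leukocytes overlapped between the groups. With TMM scaling limma called no striated muscle, red cell, leukocyte, endothelial or liver marker. The medians of these types on that scale were -0.75, 0.61, -0.002, 0.08 and 2.19 in that order, the last from 1 marker. The part of the marker miRNAs in the cluster's values was not tested.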

How the data were processed

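The authors deposited 1 text file per library with 1152 entries and no stated unit. Values sum to about 1000000 per library and were read as CPM (counts per 1000000) as deposited by the authors. In 3 of them a single column holds first all names and then all values (unit other, as deposited by the authors), paired here by position. Per the submitters' processing notes, Bowtie (no version) and GRCm38 were used. For counting and annotation the tools are not stated in the sources used here. All non-zero values (100%) were whole reads within 0.005 CPM. Libraries of a group differed by more than counting error (chi-square over its degrees of freedom 515 in Sham, 367 in CKD).

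limma 3.58.1 (trend, two-sided) and edgeR 4.0.16 were run in R 4.3.3. The TMM factors were 0.479 and 0.696 in Sham and 1.81 and 1.66 in CKD, and the scripts were tested on simulated data. Members and lists were chosen with earlier results of these data known. Values are given for members called with TMM scaling, the 12 most abundant, both arms of the called hairpins (6 hairpins where fewer were called, filled by abundance), and the 3 highest TMM differences. Other members are given by counts, or were named after their values were seen. Alternatives were pseudocounts, filters, the trend, scaling, edgeR, a block, single libraries left out and, chosen after seeing the data, summed miR-299 arms.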

Additional observations from a re-analysis of the deposited data

How the results depend on the processing

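With 2 pooled libraries a group, the calls on levels and on arm ratios changed when single libraries were left out. Such a fit takes its spread within groups from the remaining pair alone. The number of calls it gives therefore does not show which libraries the calls rest on. Members called on the deposited scale numbered 21 of those with a mean of at least 10 CPM, where fewer were tested, and 8 to 43 with single libraries left out, against 40. Members called with TMM scaling, 6 in all, numbered 2 without a filter, 3 without the mean-variance trend, 2 with totals without miR-143-3p, 1 with the replicate number as a block (replicate block) and 0 to 1 with single libraries left out. Replicate numbers share only a number here (correlation of same-numbered deviations 0.0999 deposited and 0.118 with TMM scaling, from 2 pairs), and the block gave 34 deposited calls and 4 arm calls. Arm calls, 4 in all, numbered 2 with a pseudocount of 0.1, 2 of those with both arms at 10 CPM, and 0 to 3 with single libraries left out. A gap of 10 kb gave 3 blocks in place of 8. The causes were not tested where none is named.

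Among named members no called level difference changed sign, and values near 0 did. With totals without miR-143-3p, TMM differences were 0.13 for miR-136-3p, 0.14 for miR-300-3p, 0.16 for miR-411-3p and 0.19 for miR-485-3p. With upper-quartile factors they were -0.049 for miR-337-5p, -0.075 for miR-379-3p, -0.020 for miR-379-5p, -0.013 for miR-409-3p and -0.0029 for miR-494-3p. With single libraries left out, deposited differences ran from -0.20 to 0.091 for miR-381-3p and from -0.048 to 0.55 for miR-485-5p, and TMM differences from -0.26 to 0.037 for miR-300-3p, -0.011 to 0.093 for miR-337-5p, -0.14 to 0.17 for miR-379-3p, -0.29 to 0.11 for miR-411-3p, -0.13 to 0.063 for miR-485-3p and -0.13 to 0.31 for miR-494-3p. With the miR-299 arms summed, the arm change of miR-299a was -0.22.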
